A study of Arabidopsis thaliana with 9 samples.

Results

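Class B acid phosphatase-like genes encode plant proteins of the haloacid dehalogenase (HAD) type, and 7 loci of this family were followed over 9 root arrays of Arabidopsis thaliana. The loci were AT4G29270, AT4G29260, AT1G04040, AT2G38600, AT2G39920, AT5G44020 and AT5G51260. Members were the probe sets annotated to exactly 1 of these loci, which gave 1 probe set for each, 7 of the 22746 probe sets other than controls. AT4G29270 was chosen by its measured signals, since it had stood out between cngc19 and Col-0 on these same arrays, so its values are given as a description, with no test. The other 6 loci were listed for their family.

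HAD-type phosphatases form a covalent bond between substrate phosphate and an aspartate of the enzyme before water releases the phosphate. Acid phosphatases in general free inorganic phosphate from organic esters and are known in roots for recycling and scavenging phosphate. Among the plant relatives of bacterial class B enzymes are the vegetative storage proteins, which accumulate in leaves and are induced by jasmonate. The annotation used here gives the 7 loci no gene name beyond the locus, so no individual role is stated for any of them.

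RNA came from roots of 3 lines, with 3 Affymetrix ATH1 arrays each: cngc1-3 and cngc19, both labelled as T-DNA knockouts in the Col-0 background, and the wild type Col-0 (stock N1092). Caesium toxicity is named in the title, yet no array is labelled with a caesium treatment, and all lines were grown by 1 protocol. Plants were moved from agar to aerated hydroponics 18 days after germination, grown there for 7 days and harvested at day 25, at growth stage 3.90, and roots of 20 to 30 plants were pooled into each tube. The labels do not tell whether each tube was a separate culture, and p-values therefore cover only differences among the tubes, which may be technical. CNGC genes encode cyclic nucleotide-gated cation channels. Named probe sets covered 0 of the 20 CNGC genes. Many probe sets are unnamed here, so the disrupted genes were not analysed and the line labels were not checked.

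Values are MAS5 signals, a linear brightness per probe set, scaled to a common trimmed mean on all 9 arrays. They were used to compare a gene between arrays and do not rank genes against each other. The common trimmed mean did not make the arrays alike. The median signal was 63.9 and 66.3 on Col-0 replicates 2 and 3 and 31.99 to 42.2 on the other 7 arrays. Comparisons of a gene with those Col-0 arrays carry this difference. No detection calls were used, and a low signal is not evidence that a transcript was absent. In pooled roots, fewer cells of a type and less RNA per cell cannot be told apart.

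The wild-type arrays were unlike one another, which bears on every comparison with Col-0. On Col-0 replicate 2 the bacterial and phage control transcripts were raised 17.3-fold relative to the median array, and on Col-0 replicate 3 they were raised 6.92-fold, while the other 7 arrays lay at 0.673 to 1.38. Across the 13648 tested probe sets, cngc19 replicate 3 correlated with Col-0 replicate 1 at r = 0.950 and with the other 2 cngc19 arrays at 0.803 and 0.814. Set against Col-0 replicate 1 and the 6 mutant arrays, Col-0 replicate 2 had r of -0.040 to -0.019 and Col-0 replicate 3 of 0.26 to 0.38, and both had r = 0.227 with each other. Whether hybridisation failed or samples were mixed up was not tested, and every Col-0 mean and every difference from Col-0 below rests on these arrays unless they are left out. The 3'-to-5' signal ratio, a measure of RNA quality, reached 199.7 for actin on cngc1-3 replicate 3 and lay between 1.34 and 5.81 on the other 8 arrays. For GAPDH it was less extreme on cngc1-3 replicate 3, at 6.37. It was 0.24 on Col-0 replicate 2, 2.81 on Col-0 replicate 3 and 0.92 to 1.07 on the remaining arrays. Of 12 root and 14 shoot marker genes, 2 and 3 had a probe set. The summed signal of the root markers PYK10 and EXPA7 was 4713 to 5619 in cngc1-3, 3882 to 5514 in cngc19 and 4592, 578 and 477 on Col-0 replicates 1, 2 and 3. PYK10, a beta-glucosidase of root endoplasmic reticulum bodies, had 3762 to 5559 on the mutant arrays and 4398, 261 and 448 on Col-0 replicates 1, 2 and 3, whereas EXPA7, a root hair expansin, was at its highest, 318, on Col-0 replicate 2. The summed signal of the 3 shoot markers RCA, PRK and LHCB4.3 was 157 to 280.3 in cngc1-3, 74.6 to 389 in cngc19 and 58.2, 846 and 2809 on Col-0 replicates 1, 2 and 3. Col-0 replicates 2 and 3 thus had the lowest PYK10 and the highest summed shoot markers of the 9 arrays. The part of these array differences in the results below was not tested. Each comparison with Col-0 is therefore repeated without Col-0 replicates 2 and 3, which leaves 1 wild-type array, assumed to vary as the mutant arrays do.

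AT4G29270 had signals of 888, 650.3 and 569.9 on replicates 1, 2 and 3 of cngc1-3, of 983, 867 and 299 on those of cngc19, and of 208, 37.4 and 21.0 on those of Col-0. All 6 mutant arrays lay above all 3 Col-0 arrays, and the lowest of them, cngc19 replicate 3, was 1.44 times the highest Col-0 array. The line means were 702.6 ± 165.2 in cngc1-3, 716 ± 366 in cngc19 and 88.8 ± 103.5 in Col-0 (SD, n = 3 each). Both mutant means were above that of Col-0. The arrays of cngc1-3 and cngc19 overlapped, and the order of these lines depended on the scale: the mean signal was higher in cngc19, but the log2 difference of cngc1-3 from cngc19 was 0.11. On the log2(signal + 16) scale, which understates the change of dim genes, the difference from Col-0 was 3.21 ± 0.71 for cngc1-3 and 3.10 ± 0.71 for cngc19 (SE of the fit), and both differences use the same Col-0 arrays. Without Col-0 replicates 2 and 3 the differences were 1.66 ± 0.63 and 1.54 ± 0.63.

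Set against Col-0 replicate 1 alone, the signal of AT4G29270 was 2.74 to 4.27 times as high on the cngc1-3 arrays, 4.73 and 4.17 times on cngc19 replicates 1 and 2, and 1.44 times on cngc19 replicate 3. Cngc19 replicates 1 and 2 averaged 3.09 times the signal of cngc19 replicate 3. The size of the difference between cngc19 and the wild type thus depended on which cngc19 array was read. Over the 7 arrays without Col-0 replicates 2 and 3, the SD of AT4G29270 was 0.83 on the log2 scale, and 6.75% of tested probe sets had a larger one (median 0.36). The difference between cngc19 and Col-0 by which AT4G29270 was chosen enters this SD, so its high rank was partly set by the choice.

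**Figure D1:**
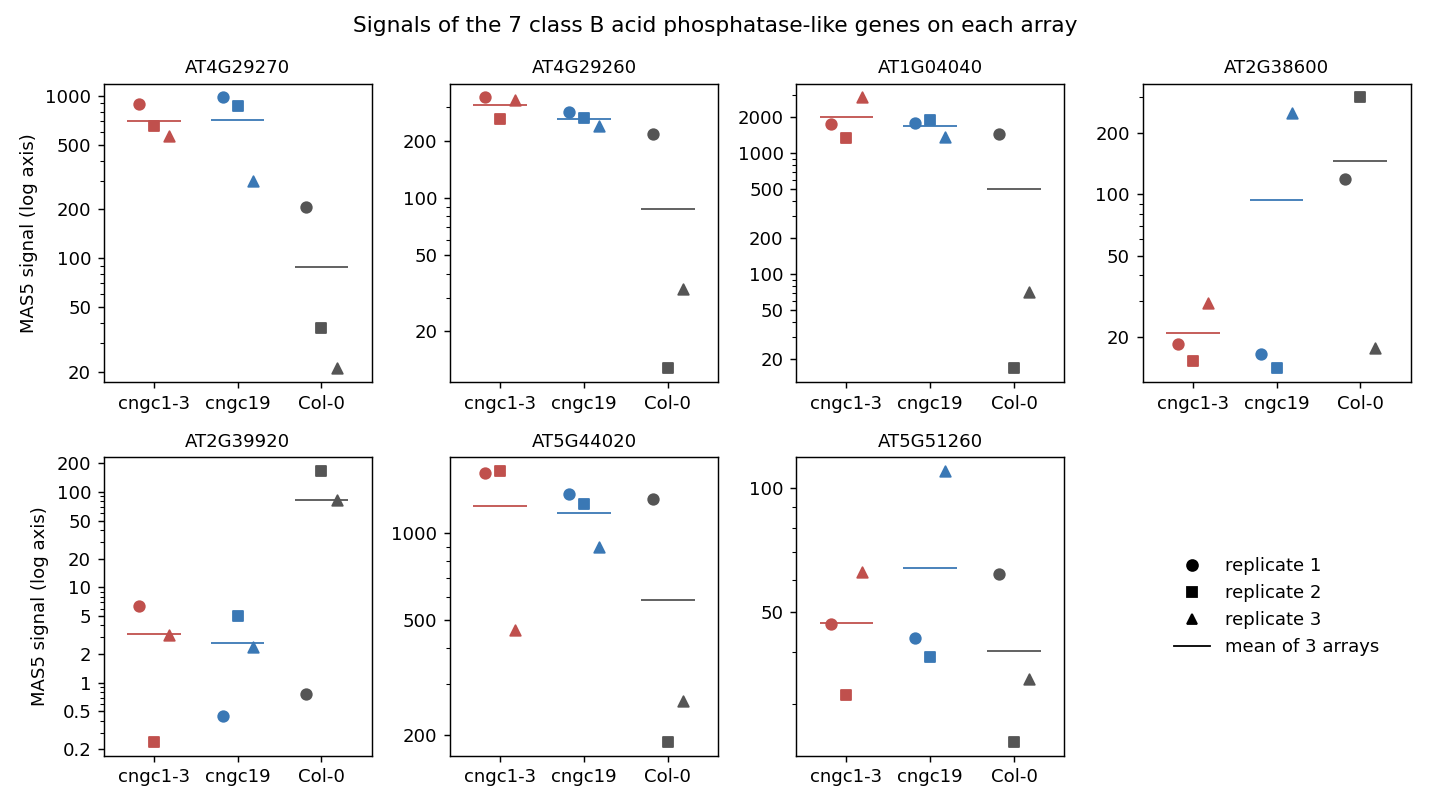
MAS5 signal (log axis) of each of the 7 loci on the 9 arrays, by line, with 1 point per array and a bar at the mean of 3 arrays. AT4G29270 and AT4G29260 lie above all Col-0 arrays on all 6 mutant arrays, AT2G38600 is high on cngc19 replicate 3 and Col-0 replicates 1 and 2, and AT2G39920 reaches 82.4 and 167 on Col-0 replicates 3 and 2 only.

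AT4G29260 is the protein-coding gene next to AT4G29270 on chromosome 4 in the RefSeq gene table (TAIR10.1), so both loci stand side by side. Its signals were 338, 260.3 and 326 in cngc1-3, 281, 262 and 239.6 in cngc19, and 217, 12.8 and 33.2 in Col-0. As for its neighbour, no mutant array overlapped with a Col-0 array, but the gap to Col-0 replicate 1 was small: the lowest mutant array was 1.11 times that array. The line means were 308 ± 41.7 in cngc1-3, 261 ± 20.7 in cngc19 and 87.5 ± 112.2 in Col-0 (SD, n = 3 each). The log2 difference from Col-0 was 2.22 ± 0.65 (SE) for cngc1-3 and 2.00 ± 0.65 for cngc19, and neither passed (limma, adjusted p = 0.181 and 0.273). Without Col-0 replicates 2 and 3 it was 0.47 and 0.25.

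Over those 7 arrays AT4G29260 was the steadier of the neighbours, a contrast that the choice of AT4G29270 on these arrays favours. Its highest signal there was 1.56 times its lowest, against 4.73 times for AT4G29270, and 84.9% of tested probe sets had a larger SD. The drop between cngc19 replicates 1 and 2 and cngc19 replicate 3 was 1.13-fold for AT4G29260 where it was 3.09-fold for AT4G29270. AT4G29250, the gene on the other side of AT4G29260, was too dim to be tested, with signals of 4.13 to 20.6 on 8 arrays and 252 on Col-0 replicate 2. It was thus highest where AT4G29260 was lowest, but at such low signals no pattern over the other 8 arrays can be read. In the gene table AT4G29250 overlaps AT4G29260 in position. It was picked for its place after the values of the members were known.

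Non-overlap was frequent over the whole array. Among all tested probe sets, 13.1% had the 3 cngc1-3 arrays above the 3 Col-0 arrays, and 7.45% had the 3 cngc19 arrays above them. Besides AT4G29270, chosen for the second of these comparisons, 1 of the 5 other tested members did so in each, AT4G29260. None of the 5 had all mutant arrays below Col-0, where 11.3% of tested probe sets did for cngc1-3 and 6.88% for cngc19.

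AT1G04040 had signals of 1747, 1335 and 2893 in cngc1-3, 1759, 1872 and 1355 in cngc19, and 1435, 16.6 and 71.5 in Col-0. Col-0 replicate 1 lay within the range of both mutant lines, and only Col-0 replicates 2 and 3 were low. The line means were 1992 ± 807 in cngc1-3, 1662 ± 272 in cngc19 and 508 ± 803 in Col-0 (SD, n = 3 each). The log2 differences from Col-0 were 3.57 ± 1.13 for cngc1-3 and 3.37 ± 1.13 for cngc19 (SE), and neither passed (limma, adjusted p = 0.181 and 0.273). They came to 0.39 and 0.20 without Col-0 replicates 2 and 3, so most of this difference lay in those 2 arrays.

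AT5G44020 had the same division of the Col-0 arrays, with signals of 1625, 1649 and 462 in cngc1-3, 1366, 1265 and 895 in cngc19, and 1318, 188 and 261 in Col-0. One mutant array stood low as well, cngc1-3 replicate 3, which is the array with the raised 3'-to-5' ratio of actin, whose part in this value was not tested. The line means were 1245 ± 678 in cngc1-3, 1175 ± 248 in cngc19 and 589 ± 632 in Col-0 (SD, n = 3 each). The log2 differences from Col-0 were 1.37 ± 0.82 for cngc1-3 and 1.47 ± 0.82 for cngc19 (SE), and neither passed (limma, adjusted p = 0.300 and 0.314). With those 2 Col-0 arrays left out the sign became negative, at -0.29 and -0.19. AT1G04040 was highest of all arrays on cngc1-3 replicate 3, where AT5G44020 was lowest of the 7, so these members did not move together there.

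**Figure D2:**
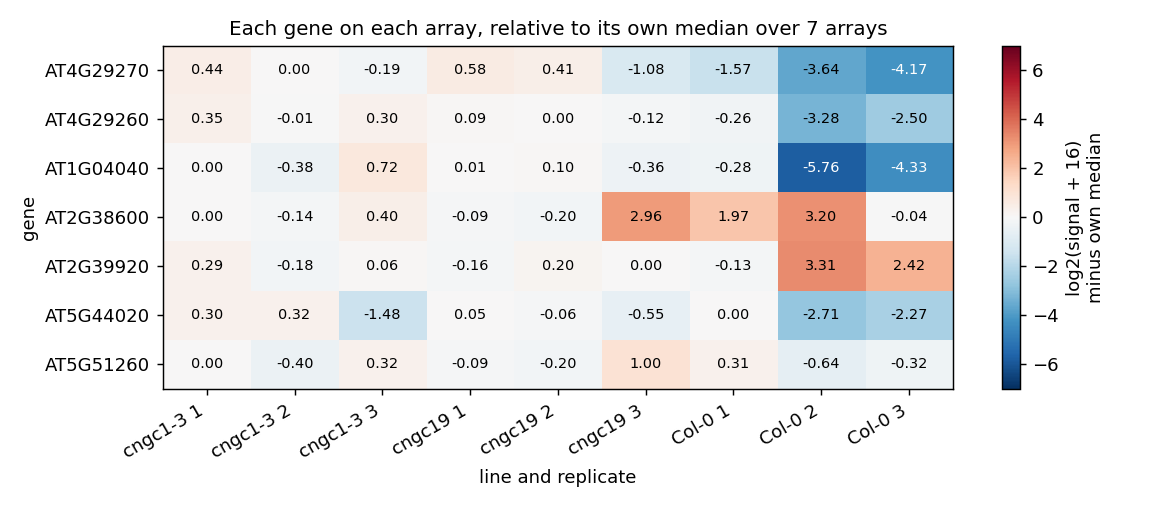
Log2(signal + 16) of each locus (rows) on each array (columns, line and replicate) minus the median of the same locus over the 7 arrays without Col-0 replicates 2 and 3, with red for higher and blue for lower. AT1G04040 lies at -5.76 and -4.33 on Col-0 replicates 2 and 3 and between -0.38 and 0.72 elsewhere, and AT2G38600 lies at 2.96 on cngc19 replicate 3 and at 1.97 and 3.20 on Col-0 replicates 1 and 2.

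AT2G38600 was high on other arrays than the members above. Its signals were 18.4, 15.1 and 29.2 in cngc1-3, 16.4, 13.96 and 252 in cngc19, and 118, 300.0 and 17.5 in Col-0. It was high on cngc19 replicate 3 and on Col-0 replicates 1 and 2 and low on the other 6 arrays, so the high arrays crossed the line labels. The line means were 20.9 ± 7.38 in cngc1-3, 94.0 ± 136 in cngc19 and 145 ± 143 in Col-0 (SD, n = 3 each), and in cngc19 and Col-0 the SD was above or close to the mean. The log2 difference from Col-0 was -1.63 ± 0.91 for cngc1-3 and -0.82 ± 0.91 for cngc19 (SE), and neither passed (limma, adjusted p = 0.271 and 0.592). The size rested on single arrays: it was -0.88 and -0.073 without Col-0 replicate 2, and -2.50 and -1.69 without Col-0 replicate 3. For cngc19 it was -1.85 without cngc19 replicate 3, -0.33 without cngc19 replicate 1 and -0.27 without cngc19 replicate 2. Without both Col-0 replicates 2 and 3 it was -1.88 for cngc1-3 and -1.07 for cngc19, although cngc19 replicate 3 had 2.13 times the signal of Col-0 replicate 1. With array weights it was -0.87 for cngc1-3. Only 1.66% of tested probe sets had a larger SD over the 7 arrays.

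On the 7 arrays without Col-0 replicates 2 and 3, AT2G38600 was highest on the arrays where AT4G29270 was lowest. The correlation of their log2 values over these 7 arrays was r = -0.887, and 6.44% of tested probe sets had a lower one with AT4G29270. Without cngc19 replicate 3 and Col-0 replicate 1 it was -0.638 over 5 arrays, and all points share the scaling of the arrays. On those 5 arrays AT2G38600 had signals of only 13.96 to 29.2, about the size of the added 16. The highest of them was on cngc1-3 replicate 3, the array with the raised 3'-to-5' ratio of actin. An opposite course can therefore not be read from that value. In 4 of the 5 tested members other than AT4G29270, all but AT5G44020, cngc19 replicate 3 lay nearer to Col-0 replicate 1 than to the mean of cngc19 replicates 1 and 2, as it did in 71.8% of tested probe sets.

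**Figure D3:**
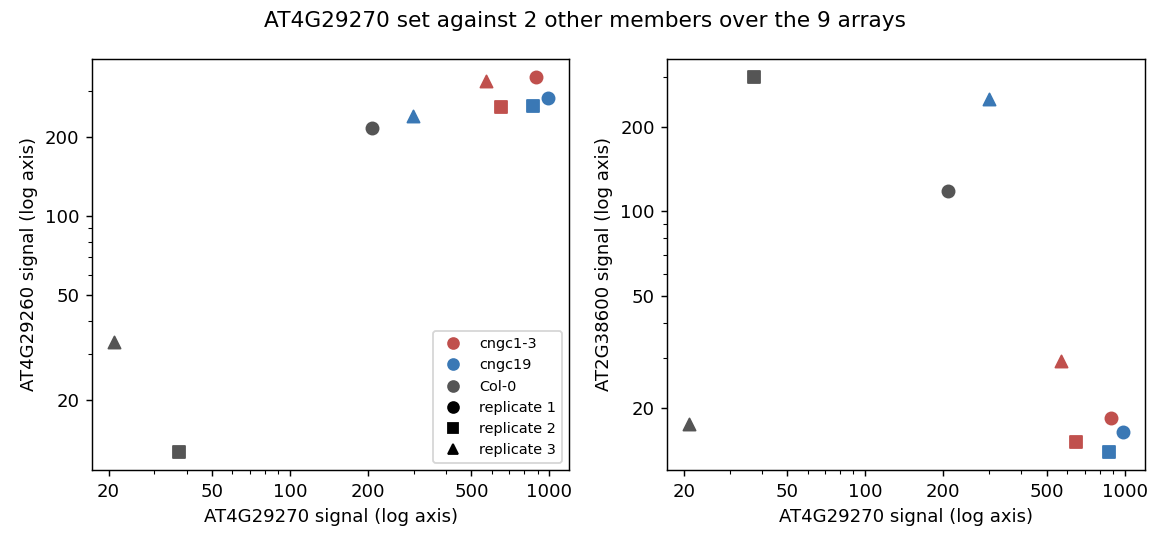
Signal of AT4G29270 (x, log axis) against that of AT4G29260 (left) and AT2G38600 (right) on the 9 arrays, with colour for the line and shape for the replicate. AT4G29260 stays between 217 and 338 while AT4G29270 runs between 208 and 983 on 7 arrays, and AT2G38600 is at 252 on cngc19 replicate 3 and at 118 on Col-0 replicate 1, where AT4G29270 is at 299 and 208.

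AT5G51260 had signals of 46.9, 31.6 and 62.7 in cngc1-3, 43.2, 38.8 and 110.0 in cngc19, and 61.9, 24.2 and 34.4 in Col-0. The lines overlapped in every pair, with means of 47.0 ± 15.6 in cngc1-3, 64.04 ± 39.9 in cngc19 and 40.2 ± 19.5 in Col-0 (SD, n = 3 each). Cngc19 replicate 3 was again the array apart, and over the 7 arrays AT5G51260 correlated with AT2G38600 at r = 0.903. That was the highest r of any pair of tested members, and both genes had their highest signal of the 7 arrays on cngc19 replicate 3. The share of tested probe sets with a higher r and the value without that array were not computed. The log2 differences of AT5G51260 from Col-0 were 0.19 ± 0.47 for cngc1-3 and 0.46 ± 0.47 for cngc19 (SE), neither of which passed (limma, adjusted p = 0.814 and 0.558), and both turned without Col-0 replicates 2 and 3, to -0.34 and -0.070.

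AT2G39920 was below the filter on dim probe sets and was not tested. Its signals were 6.42, 0.239 and 3.21 in cngc1-3, 0.448, 5.04 and 2.37 in cngc19, and 0.760, 167 and 82.4 in Col-0. It was at 6.42 or below on 7 arrays and higher on Col-0 replicates 2 and 3, where the control transcripts were raised too. AT2G39910, which overlaps it in the gene table and was picked for its place, had signals of 10.05 to 41.5 on those 7 arrays and of 265 and 95.7 on Col-0 replicates 2 and 3. Both of these Col-0 arrays lay above the other 7 in 21.9% of tested probe sets. That share leaves out probe sets as dim as AT2G39920, for which it was not computed. With no filter, the median log2 difference from Col-0 over all probe sets was -0.42 for cngc1-3 and -0.38 for cngc19. AT2G38610, which overlaps AT2G38600, did not follow that member: it was lowest, at 17.3, on Col-0 replicate 2, where AT2G38600 had 300.0. AT1G04030, which overlaps AT1G04040, was too dim to be tested.

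With AT4G29270 set aside, which was chosen on these arrays, the direction of the other 5 tested members depended on the wild-type arrays used. In cngc1-3 against Col-0, 4 had higher and 1 a lower mean log2 value, with a median difference of 1.37, beside -0.028 over all tested probe sets. In cngc19 against Col-0 the counts were the same, with a median of 1.47 beside 0.049. Without Col-0 replicates 2 and 3, 2 were higher and 3 lower in each comparison, with medians of -0.29 for cngc1-3 and -0.070 for cngc19, beside -0.084 and -0.047 over all. Of the 5, AT4G29260, AT1G04040 and AT5G44020 had both of these Col-0 arrays below the other 7, where 23.6% of tested probe sets did, and AT4G29270 did so too. None of the 5 had both above, where 21.9% of tested probe sets did, although the untested AT2G39920 had. These shares and medians over all were not matched for signal level. With no filter the median difference from Col-0 was -0.42 for cngc1-3 and -0.38 for cngc19. With the filter at the 60th percentile it was 0.31 and 0.37. AT4G29260, AT1G04040 and AT5G44020 lay above that filter, and AT2G38600 and AT5G51260 did not. The part of signal level in the direction of the members was not tested.

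**Figure D4:**
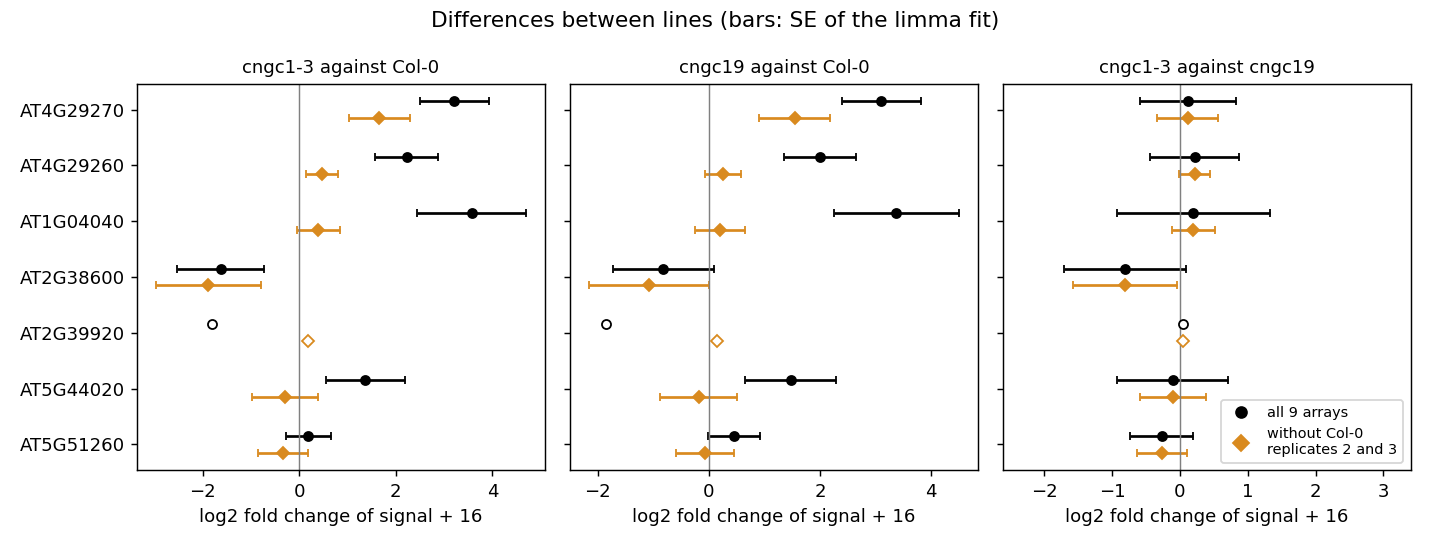
Log2 fold change of signal + 16 for each locus in the 3 comparisons, with all 9 arrays (circles) and without Col-0 replicates 2 and 3 (diamonds), and bars for the SE of the limma fit; open symbols mark AT2G39920, which was not tested. Leaving out both arrays brings AT1G04040 to 0.39 and 0.20 and AT4G29270 to 1.66 and 1.54 in cngc1-3 and cngc19.

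None of the 5 tested members other than AT4G29270 passed in any comparison (limma, adjusted p under 0.05), where the background was 0% of 13648 probe sets in each. At an unadjusted p under 0.05 there were 2 of the 5, AT4G29260 and AT1G04040, in each mutant against Col-0, beside 24.2% of all tested probe sets for cngc1-3 and 18.1% for cngc19. Between the mutants there were none of the 5, beside 0.0953% of all. Once Col-0 replicate 1 was left out, so that both remaining wild-type arrays were those with raised controls, 3 of the 5 passed in each comparison with Col-0, AT4G29260, AT1G04040 and AT5G44020, but so did 35.2% of all tested probe sets for cngc1-3 and 32.6% for cngc19. With array weights AT4G29260 and AT1G04040 passed in both, beside 9% and 7.67% of all tested probe sets. The shares of all tested probe sets were not matched to the members for signal level. Without Col-0 replicates 2 and 3, none of the 5 passed, beside 0% of all tested probe sets, and none had an unadjusted p under 0.05 (limma), beside 8.47% of all for cngc1-3 and 2.67% for cngc19.

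Between the mutant lines the differences were within the error of the fit. In cngc1-3 against cngc19 the log2 differences of 5 members lay between -0.27 and 0.22, and that of AT2G38600 was -0.81 ± 0.91 (SE). The arrays of both lines overlapped in all 7 members, where 4.81% of tested probe sets had all cngc1-3 arrays above cngc19 and 3.45% all below. None of the 5 passed (limma, adjusted p = 1.000 for each), and with an SE of 0.47 to 1.13 differences of about that size are not shown to be absent. Without cngc19 replicate 3 the value of AT2G38600 was 0.23, so its difference lay in that array. With only the 2 mutant lines fitted, the SE was 0.23 for AT4G29260, 0.32 for AT1G04040 and 0.77 for AT2G38600, and again none of the 5 passed. The pooled fit gave 13 of all tested probe sets an unadjusted p under 0.05 (limma), and the fit of the mutant lines alone gave 232. The pooled fit takes in the spread of the Col-0 arrays, and both fits take in the spread within the mutant lines. The part of either in these counts was not tested.

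Other acid phosphatase and phosphate genes were scarcely covered. Of 29 purple acid phosphatases, metal-containing enzymes of another fold, 3 had a named probe set and 2 were tested, and neither passed. PAP4 had signals of 126, 144 and 152 in cngc1-3, 163, 153 and 277 in cngc19 and 427, 118 and 263 in Col-0, with log2 differences from Col-0 of -0.71 and -0.30 (limma, adjusted p = 0.375 and 0.726). PAP1 had log2 differences of -0.31 and -0.20 (limma, adjusted p = 0.630 and 0.781). Of 31 phosphate starvation response genes, only LPR1, a multicopper oxidase named for low phosphate roots, had one. LPR1 had 46.1, 58.6 and 63.9 in cngc1-3, 59.3, 79.2 and 15.8 in cngc19, and 17.6, 19.2 and 3.84 in Col-0. It did not pass (log2 differences 1.33 and 1.09, limma, adjusted p = 0.181 and 0.275), and cngc19 replicate 3 lay within the range of Col-0. The 2 vegetative storage protein genes VSP1 and VSP2 and 19 jasmonate genes had no named probe set and were not analysed here.

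The genes whose log2 signal followed that of AT4G29270 most closely over the 9 arrays, among probe sets of 1 gene, were AT1G22440, AT5G37740, AT2G43780, AT1G17860 and AT3G07170, with Pearson r between 0.983 and 0.990. Over the 7 arrays without Col-0 replicates 2 and 3 their r lay between 0.905 and 0.972. These 7 are among the 9 arrays by which the genes were picked, so a high r and a like course there were partly set by the choice. Among the members, AT4G29260 had r = 0.924, AT1G04040 0.902, AT5G44020 0.835, AT5G51260 0.271 and AT2G38600 -0.483 over 9 arrays. Over 7 arrays these were 0.710, 0.371, 0.229, -0.684 and -0.887. AT4G29260 was thus the most alike of the family, yet 3.18% of tested probe sets were more alike over 9 arrays and 14.7% over 7. An r of 0.9 or more over 9 arrays was found in 5.09% of tested probe sets, and all points share the arrays and their scaling. AT1G22440 had signals of 789.5, 684 and 737 in cngc1-3, 1154, 1024 and 426 in cngc19, and 282, 22.0 and 8.05 in Col-0, with the same low cngc19 array as AT4G29270.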

How the data were processed

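Per the submitters' processing notes, the deposited signal intensities were made with MAS5 and GCOS, and per the labels RNA was labelled by the one-cycle method. The table has 22810 rows, 64 of them controls. Names come from the platform annotation, updated by gene ID through RefSeq (TAIR10.1): 13513 had 1 symbol, 503 several, and the others are unnamed here. Signals were taken as log2(value + 16), and the 13648 probe sets at or above the 40th percentile of the mean log2 value were tested, 6 members among them. The test was limma's (version 3.58.1, R 4.3.3; lmFit, eBayes with trend, all 9 arrays, 6 residual degrees of freedom), two-sided, with Benjamini-Hochberg adjustment over all tested probe sets. The procedure was tested on simulated data. Groups and replicate numbers came from titles. No pair of arrays held identical values (0 pairs). Precision is limited by 3 arrays per line.

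Named were all members, both tested purple acid phosphatases, LPR1, markers, and the 5 genes most correlated with AT4G29270. Members and lists were chosen with earlier results of these data known. Leaving out arrays with raised controls was added after seeing the data. Tables and plots used Python 3.11.15, pandas 2.3.3, numpy 2.4.6 and matplotlib 3.10.9.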

Additional observations from a re-analysis of the deposited data

How the results depend on the processing

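Of the 5 tested members other than AT4G29270, 0 passed in each comparison with 3 arrays a line. The count became 2 in each mutant against Col-0 with array weights, and leaving out 1 array at a time gave 0 to 3 in both, with 3 only without Col-0 replicate 1. It stayed at 0 under pseudocounts of 1 and 64, no filter, a filter at the 60th percentile (where AT2G38600 and AT5G51260 drop out), quantile normalization, median centring, eBayes without trend or robust, and only the lines compared, and in all settings for cngc1-3 against cngc19. With the replicate block the counts were 0, 0 and 0. Deviations from the line mean correlated at r of -0.23 to 0.19 between arrays of like number. Between the mutants r was 0.16, -0.099 and -0.025 for replicates 1, 2 and 3. The values with Col-0 rest on unlike arrays, so they cannot settle whether arrays were paired. For the differences from Col-0, the block moved the SE of AT4G29270 from 0.71 to 0.57 and that of AT2G38600 from 0.91 to 0.99. The median log2 difference over all tested probe sets moved from -0.028 to 0.49 under median centring and 0.29 under quantile normalization for cngc1-3 against Col-0, and from 0.049 to 0.49 and 0.30 for cngc19. With no filter this median was -0.42 for cngc1-3 and -0.38 for cngc19, and with the filter at the 60th percentile it was 0.31 and 0.37. In cngc1-3 against Col-0 the sign turned without Col-0 replicates 2 and 3 for AT5G44020 (-0.29) and AT5G51260 (-0.34), and without Col-0 replicate 2 for AT5G51260 (-0.022, with -0.022 to 0.46 over all single arrays left out). In cngc19 against Col-0 it turned without both for AT5G44020 (-0.19) and AT5G51260 (-0.070). The untested AT2G39920 turned without both as well, from -1.81 to 0.19 for cngc1-3 and from -1.86 to 0.14 for cngc19. Between the mutants, small differences turned: AT4G29270, from 0.11, to -0.20 with array weights, -0.063 without cngc1-3 replicate 1, -0.41 without cngc19 replicate 3 (single arrays left out, -0.41 to 0.42) and -0.28 without Col-0 replicates 2 and 3 and replicate 3 of both mutants; AT1G04040 to -0.16 with array weights, -0.11 without cngc1-3 replicate 3 (single arrays left out, -0.11 to 0.45) and -0.25 without those 4 arrays; AT2G38600 to 0.056 with array weights, 0.23 without cngc19 replicate 3 (-1.35 to 0.23) and 0.071 without those 4 arrays; AT5G44020 to 0.22 with array weights, 0.49 without cngc1-3 replicate 3, 0.017 without cngc19 replicate 1 (-0.41 to 0.49) and 0.31 without those 4 arrays; and AT5G51260 to 0.11 without cngc19 replicate 3 (-0.49 to 0.11). The untested AT2G39920 turned there too, from 0.046 to -0.014 with array weights, -0.069 without cngc1-3 replicate 1 and -0.040 without cngc19 replicate 1. Over all tested probe sets, 0 passed in each comparison, against 14 and 11 for cngc1-3 and cngc19 against Col-0 without cngc19 replicate 3, 9 between the mutants with array weights and 106 without those 4 arrays (limma). The cause was not tested.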
